A study of Homo sapiens with 9 samples.

Results

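The genes described here code for 10 proteins of the Polycomb machinery and of the enzyme complexes around it: *EZH1*, *EZH2*, *EED*, *SUZ12*, *RING1*, *RNF2*, *RYBP*, *BMI1*, *CBX2* and *EPC1*. The sites examined were all YY1-binding sites (peaks) annotated with 1 of these gene symbols, at any distance from the gene. This gave 13 of the 23002 peaks, at least 1 for each of the 10 genes. The rule rests on the symbols and uses no measured value.

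YY1 (Yin Yang 1) was immunoprecipitated from SK-N-MC cells and the bound DNA was sequenced (ChIP-seq) to ask how YY1 occupancy differs in cells that carry a huntingtin (Htt) fragment with a long or a short polyglutamine tract. SK-N-MC is an established human line labelled as neuroblastoma and wild type in genotype, and it is also known to carry the EWSR1-FLI1 fusion of Ewing-type tumours. All cells were transiently transfected with Lipofectamine 2000 and a plasmid for EGFP-tagged Htt residues 1 to 550, with 23 glutamines (HttQ23, 3 biological replicates) or 89 glutamines (HttQ89, 3 biological replicates), so not every cell of a dish need carry the fragment, and no untransfected YY1 library entered the comparison. The 3 input libraries served the authors' peak calling and entered no fit here, and with no expression values the labelled cell type was not checked against its markers.

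Polycomb proteins keep genes silent through 2 families of complexes. Polycomb repressive complex 2 (PRC2) methylates histone H3 at a lysine through EZH1 or EZH2, which need EED and SUZ12 for activity. Polycomb repressive complex 1 (PRC1) ubiquitinates histone H2A through RING1 or RNF2, paired with a PCGF protein such as BMI1. Chromobox proteins such as CBX2 bring PRC1 to the mark that PRC2 lays, whereas RYBP defines variant forms of PRC1 that lack a chromobox protein. YY1 is the vertebrate counterpart of Pleiohomeotic, a DNA-binding Polycomb protein of *Drosophila*. EPC1 is the odd member: it is the human counterpart of *Drosophila* Enhancer of Polycomb, but it is a scaffold of the NuA4/TIP60 histone acetyltransferase complex. All signals below concern YY1 on the DNA of these genes, and neither their transcripts nor their proteins were measured.

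The annotated peak of 5 genes held the core of the YY1 motif, ATGGCG on either strand, and these are the stretches that tie the peaks to the letters YY1 is known to bind. Each is written 5′ to 3′ on the strand that reads ATGGCG (GRCh38), over 30 bases, with the core in capitals.
*RNF2*, chr1:185045542-185045571, minus strand: ccgccgcacaatATGGCGagcctcagcttc
*EZH2*, chr7:148884293-148884322, minus strand: caaataaaagcgATGGCGattgggctgccg
*RING1*, chr6:33208510-33208539, plus strand: agcgcccgggccATGGCGgcggcggtggcg
*SUZ12*, chr17:31937235-31937264, plus strand: gcaggaaccgcgATGGCGcctcagaagcac
*EPC1*, chr10:32346653-32346682, plus strand: ggcgaagagaagATGGCGgccattttgtgt
In the *EPC1* stretch the core is preceded by aag, so that it also reads as the longer form of the motif, AAGATGGCG, and no other member peak held that form. In *SUZ12* the first 3 capitals are the annotated start codon of the gene. The cores of *EZH2*, *RING1* and *SUZ12* lie on the strand of the gene, and those of *RNF2* and *EPC1* on the opposite strand.

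*EZH1* and *EZH2* are paralogs that can replace each other in PRC2, and their promoters at the YY1 peak differ in the core motif. The 250 bases before the RefSeq start site inside that peak of each (GRCh38.p14, minus strand) are given for comparison, with the core in capitals. *EZH2* has another RefSeq start site outside the peak, whose promoter held 0 copies.
*EZH2*, chr7:148884292-148884541: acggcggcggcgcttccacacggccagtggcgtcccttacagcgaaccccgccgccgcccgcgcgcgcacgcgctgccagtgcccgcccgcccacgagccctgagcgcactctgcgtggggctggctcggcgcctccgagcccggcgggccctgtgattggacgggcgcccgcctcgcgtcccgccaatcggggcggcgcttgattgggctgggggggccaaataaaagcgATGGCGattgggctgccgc
*EZH1*, chr17:42745041-42745290: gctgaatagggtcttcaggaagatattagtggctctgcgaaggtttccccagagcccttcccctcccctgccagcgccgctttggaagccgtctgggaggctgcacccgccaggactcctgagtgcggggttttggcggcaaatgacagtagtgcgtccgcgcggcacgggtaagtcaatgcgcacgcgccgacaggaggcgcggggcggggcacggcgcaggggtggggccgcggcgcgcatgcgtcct
The stretch of *EZH2* held 1 copy and that of *EZH1* held 0 copies. RefSeq promoters of 300 bases (250 before and 50 after the start) were found for 9 of the 10 genes. The core was present on either strand at *RNF2* and *RING1* and at 1 of the start sites of *EZH2* and of *EPC1*. It was absent from the promoters of *EZH1*, *EED*, *SUZ12*, *BMI1* and *RYBP*. At *EED*, *SUZ12*, *BMI1*, *RYBP* and *EPC1* these windows shared 0 bases with the strongest peak of the gene. There they do not describe the sequence under the peak, and the cores printed above for *SUZ12* and *EPC1* lie outside them. Of all 35116 such promoters 10.7% held the core on either strand. The absence of these letters from a window says nothing of whether YY1 can bind there.

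Across the 10 genes, the strongest peak of each is referred to as its main peak. The core was present in 5 of the 10 main peaks, and in 4 of the 9 that could be tested, against 32.3% of all 14698 tested peaks. A shorter pattern, AANATGG (which can overlap the core and the longer form), occurred in the main peaks of *RNF2*, *SUZ12*, *BMI1* and *EPC1*, with 3 copies under *EPC1*, and in 18.8% of tested peaks. The longer AAGATGGCG occurred in 4.42% of tested peaks. Among the strongest 100 tested peaks these shares were 88% for the core, 39% for AAGATGGCG and 86% for AANATGG. All patterns were searched on both strands. The main peaks of *EZH1*, *EED*, *CBX2* and *RYBP* held none of the 3 patterns.

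All 13 peaks were 401 bp wide, and 11 were annotated to a promoter. The main peak covered the transcription start site (TSS) of its annotated transcript in 7 genes (*EZH1*, *EZH2*, *EED*, *RING1*, *RNF2*, *BMI1* and *CBX2*). That of *SUZ12* began 133 bp downstream of the TSS and that of *EPC1* 60 bp downstream, whereas that of *RYBP* ended 509 bp upstream. The *EPC1* distance is to the start of a transcript with a retained intron; the peak centre lay 599 bp downstream of the nearer of the 2 RefSeq start sites of the gene, and the other lies far upstream. The start of the antisense RNA EPC1-AS2 lay inside the *EPC1* peak, and the starts of unnamed divergent long non-coding RNAs lay inside those of *RING1* and *EED*. Occupancy there cannot be assigned to one of the 2 transcripts. The GC content of the main peaks ran from 68.1% (*EED*) to 84.0% (*CBX2*), beside a median of 71.1% over tested peaks.

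**Figure D1:**
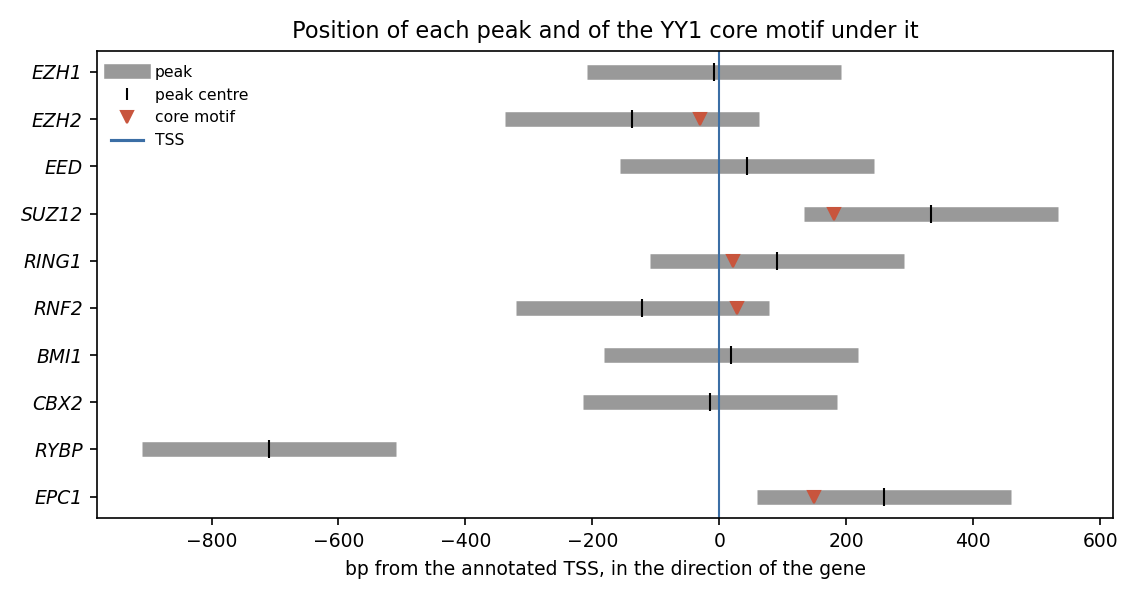
Position of the main peak of each gene (grey bar, 401 bp; black tick, centre) relative to the annotated TSS (blue line), in bp in the direction of the gene, with the first base of each core motif as a red triangle. Bars of 7 genes cross the TSS, and the bar of RYBP lies upstream, 509 bp away.

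The values are read counts per peak that the authors scaled to sequencing depth, called normalized counts here. The totals over all peaks were 955340 and 1000667 in HttQ89 replicates 1 and 2, and between 1503690 and 2122032 in the other 4 libraries. The median tested peak of HttQ89 replicates 1, 2 and 3 stood at 0.433, 0.590 and 1.23 times the mean of the 3 HttQ23 medians, so HttQ89 replicate 3 stood apart from the other HttQ89 libraries. A peak was tested if it was above 0 in all 6 libraries, which 14698 peaks (63.9%) were. Each was tested with limma on log2(normalized count + 1), two-sided, with Benjamini-Hochberg adjustment over all 14698 peaks; fold changes below are on this scale and given as HttQ89 minus HttQ23. Of the 13 member peaks 9 passed this filter, the main peaks of all genes but *SUZ12*. No tested peak passed an adjusted p of 0.05 (0.0% of all), and so none of the 9 member peaks did, nor did any peak with edgeR or DESeq2 on the recovered reads. At an unadjusted p under 0.05, 591 peaks (4.02%) stood lower in HttQ89 and 30 (0.204%) stood higher, among them 1 member peak (*EZH1*, lower).

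The catalytic subunits of PRC2 came first. At the *EZH1* promoter (chr17:42744849-42745249) the normalized count was 138.94, 92.40 and 98.06 in the HttQ23 libraries (replicates 1, 2 and 3, an order kept throughout) against 22.65, 33.60 and 97.75 in the HttQ89 libraries. HttQ89 replicates 1 and 2 lay far under every HttQ23 library, and replicate 3 lay inside the HttQ23 range, so the groups overlapped. The group means were 110 ± 25.4 and 51.3 ± 40.6 (SD, n = 3 each). This gave a log2 fold change of -1.33 ± 0.68 (SE) that did not pass the limma test (unadjusted p = 0.0482, adjusted p = 0.818). It was the lowest log2 fold change of the 9 member peaks. Without HttQ89 replicate 3 the same fit gave -1.93 (limma adjusted p = 0.0491), where 514 of all tested peaks (3.50%) were lower at an adjusted p under 0.05.

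At *EZH2* (chr7:148884217-148884617), which codes for the more active methyltransferase of dividing cells, the normalized count was 298.04, 224.08 and 238.15 in the HttQ23 libraries against 135.90, 101.79 and 305.00 in the HttQ89 libraries. HttQ89 replicate 3 was the highest of all 6 libraries while the other HttQ89 libraries were the lowest. The log2 fold change was -0.63 ± 0.56 (SE, 3 libraries a group), with a 95% interval of -1.72 to 0.46 and a limma adjusted p of 0.818. Of the core PRC2 genes *EZH2* had the strongest peak, above 92.0% of tested peaks, beside 58.0% for *EZH1*.

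The subunits without catalytic activity differed in how well they were covered. *EED* codes for the subunit that reads the methyl mark, and its promoter peak (chr11:86244894-86245294) had normalized counts of 115.61, 89.21 and 113.82 (HttQ23) against 46.33, 82.03 and 131.23 (HttQ89). Here too replicates 1 and 2 of HttQ89 were under every HttQ23 library and replicate 3 was above them all, and the log2 fold change was -0.41 ± 0.63 (SE; limma adjusted p = 0.832). *SUZ12* codes for the scaffold that binds EZH1 or EZH2. Its peak (chr17:31937200-31937600) had 61.52, 11.68 and 30.64 in the HttQ23 libraries against 0, 0 and 46.16 in the HttQ89 libraries. The value of 0 in HttQ89 replicates 1 and 2 allows up to 3 reads, that is, normalized counts of 3.09 and 2.96. The *SUZ12* values varied widely within HttQ23 itself and the groups overlapped (exact two-sided permutation p = 0.5, n = 3 each). The filter kept this peak out of the main fit, and in a fit with no filter, added after its values were seen, it did not pass (limma adjusted p = 0.871).

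The genes for the ubiquitin ligases of PRC1 had similar peaks. *RING1* (chr6:33208391-33208791) had normalized counts of 200.46, 155.05 and 170.74 (HttQ23) against 81.33, 85.98 and 199.11 (HttQ89). Its log2 fold change was -0.64 ± 0.58 (SE; limma adjusted p = 0.818). *RNF2* (chr1:185045205-185045605), which codes for the paralog also known as RING1B, had 271.52, 204.97 and 168.98 in the HttQ23 libraries against 73.10, 129.46 and 219.93 in the HttQ89 libraries. Its log2 fold change was -0.72 ± 0.57 (SE; limma adjusted p = 0.818). At both genes HttQ89 replicates 1 and 2 lay under every HttQ23 library and HttQ89 replicate 3 lay within the HttQ23 range.

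The PCGF protein BMI1 makes the ligases active and marks canonical PRC1. At its promoter (chr10:22321277-22321677) the normalized count was 252.43, 157.18 and 199.63 (HttQ23) against 150.31, 102.78 and 233.50 (HttQ89). HttQ89 replicate 1 was just under the lowest HttQ23 library, and the log2 fold change was -0.38 ± 0.56 (SE; limma adjusted p = 0.828). CBX2 is the chromobox subunit that compacts chromatin. Its peak (chr17:79777934-79778334) had 164.40, 169.92 and 66.54 in the HttQ23 libraries against 56.63, 143.30 and 105.89 in the HttQ89 libraries. At *CBX2* replicate 3 was the low library of HttQ23 and HttQ89 replicate 1 was the lowest of all 6, and the log2 fold change was -0.37 ± 0.61 (SE; limma adjusted p = 0.836).

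*RYBP* had the weakest tested peak of the 9 (chr3:72447130-72447530), with normalized counts of 76.37, 61.60 and 40.28 (HttQ23) against 28.83, 49.41 and 55.21 (HttQ89). Only HttQ89 replicate 1 was under every HttQ23 library, and the log2 fold change was -0.41 ± 0.73 (SE; limma adjusted p = 0.844). RYBP is also known to bind YY1 itself, from which its name (RING1 and YY1 binding protein) comes.

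*EPC1* stood out by the strength of its peak. It had normalized counts of 2848.85, 1364.69 and 2644.21 in the HttQ23 libraries against 1847.02, 981.34 and 2631.88 in the HttQ89 libraries (chr10:32346359-32346759), which made it the peak of rank 6 among the 14698 tested. The means were 2286 ± 804 and 1820 ± 826 (SD, n = 3 each). Replicate 2 was the lowest library of its group in both groups, and the HttQ89 values of replicates 1 and 3 lay inside the HttQ23 range, so the groups overlapped. The log2 fold change was -0.37 ± 0.57 (SE), with a 95% interval of -1.48 to 0.74 and a limma adjusted p of 0.830. Its mean over the 6 libraries was 2053 normalized counts, beside 51.95 (*RYBP*) to 217 (*EZH2*) for the other 8 tested genes.

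**Figure D2:**
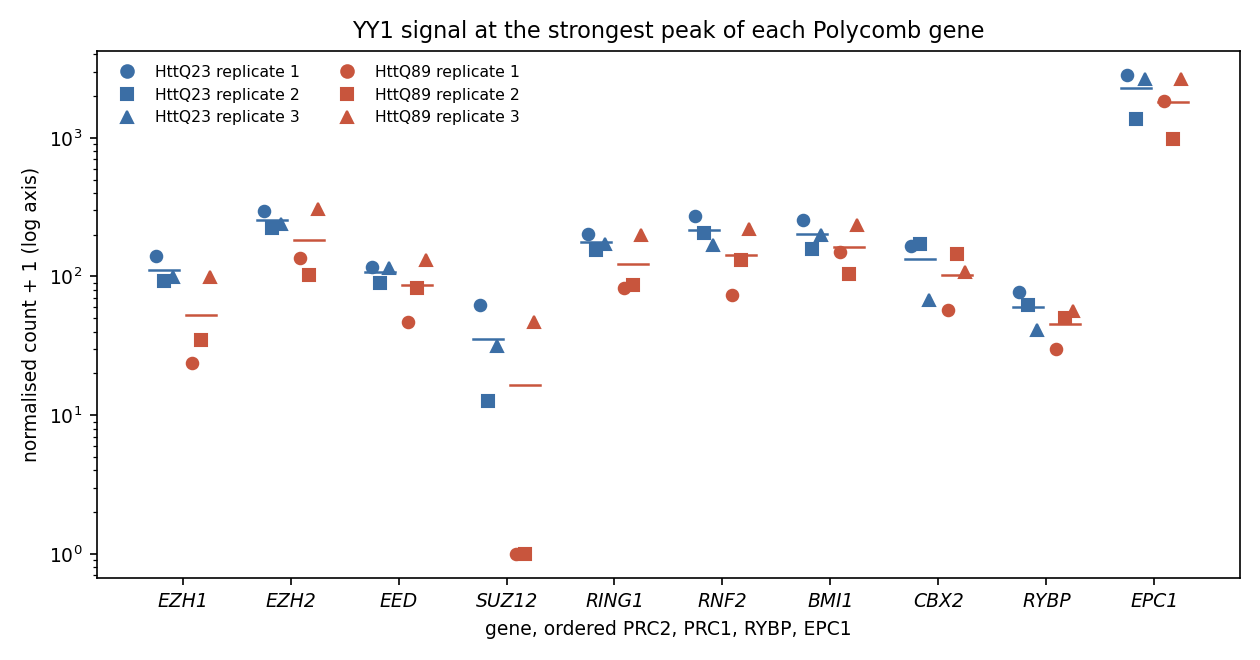
Normalized count plus 1 (log axis) at the main peak of each gene in each of the 6 YY1 libraries (blue, HttQ23; red, HttQ89; circle, square and triangle for replicates 1, 2 and 3; line, group mean). HttQ89 replicates 1 and 2 lie under all HttQ23 libraries at 6 of the 9 tested peaks, SUZ12 is at 0 in both (plotted at 1), and EPC1 lies above all others.

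The peaks most like that of *EPC1*, by the root mean square difference of the log2 values over the 6 libraries, were at *FBXO31* (0.0877), *HCFC1* (0.170), *ATG4B* (0.176), *DNLZ* (0.199) and *TMEM131* (0.370). HCFC1 is a transcriptional coregulator that is known to join the PR-DUB deubiquitinase, which removes the mark that PRC1 lays. Each of the 5 peaks held at least 1 core.

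The second peaks of 3 genes were weak. A second *EPC1* peak (chr10:32379041-32379441), 243 bp upstream of another start of the gene, had normalized counts of 1.06, 0 and 9.63 (HttQ23) against 2.06, 4.94 and 4.53 (HttQ89). A peak 3689 bp downstream of the start of a *RING1* transcript (chr6:33213249-33213649) was read in replicate 3 of each group alone, at 21.89 and 19.01, and was at 0 in the other 4 libraries. A peak in the first intron of *EZH2* (chr7:148833090-148833490) had 0, 20.18 and 0 in the HttQ23 libraries against 3.09, 10.87 and 6.34 in the HttQ89 libraries, and held 1 core. None of these 3 was above 0 in all libraries, and with *SUZ12* they make up the 4 that were not tested. The exact permutation p of each of these 3 was 1 (two-sided, n = 3 each).

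The 9 tested peaks were compared with all tested peaks. All 9 had a log2 fold change below 0, as did 82.8% of all tested peaks, and their median was -0.41 against -0.50 for all tested peaks and -0.51 for tested promoter peaks. No member peak had all HttQ89 libraries below, or all above, the HttQ23 libraries, against 4.27% and 0.537% of all tested peaks. Without HttQ89 replicate 3, 6 of the 9 lay below every HttQ23 library, against 48.7% of all tested peaks. The exact permutation p of the 9 peaks ran from 0.2 (*EZH1*) to 0.6 (*EED*), where 3 libraries a group cannot give less than 0.1. The median strength of the 9, each the strongest peak of its gene, was 149 normalized counts. Over 10776 genes taken at their strongest tested promoter peak the median was 86.6, and 7 of the 9 (all but *EZH1* and *RYBP*) were above it.

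**Figure D3:**
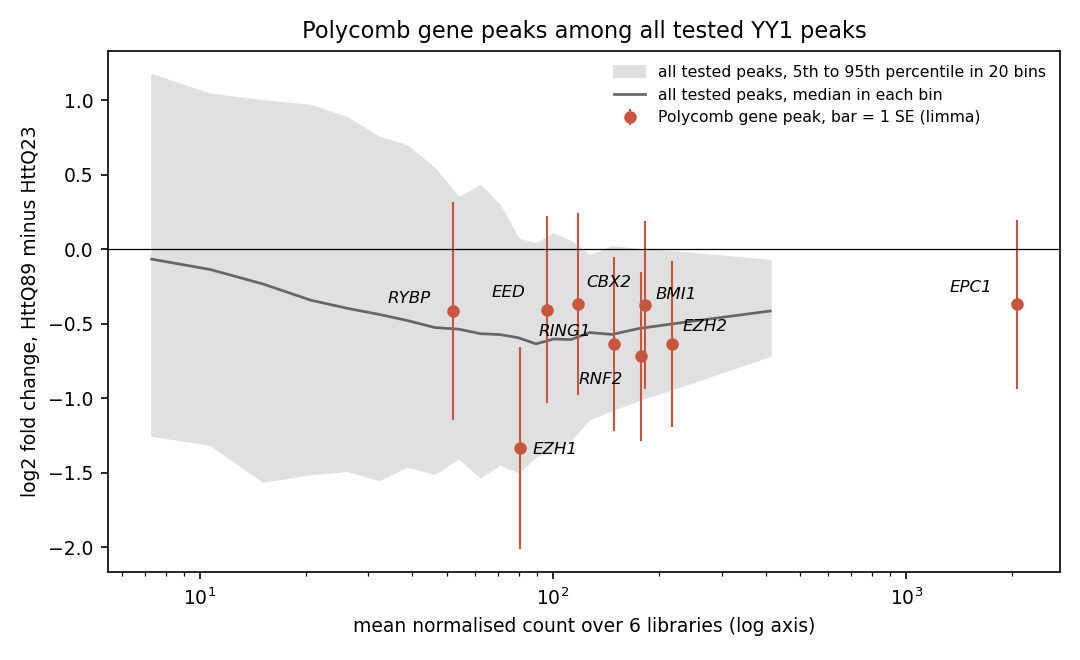
Log2 fold change (HttQ89 minus HttQ23) against the mean normalized count over the 6 libraries (log axis) for the 9 tested Polycomb gene peaks (red, bar = 1 SE from limma), over the median (grey line) and the 5th to 95th percentile (grey band) of all tested peaks in 20 bins of strength. All 9 lie below 0, as most tested peaks do, with EZH1 lowest at -1.33 and EPC1 to the right of the last bin.

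The direction of the shift differed between the HttQ89 libraries. Relative to the HttQ23 mean, the median shift of all tested peaks was -0.89, -0.71 and 0.27 on the log2 scale in HttQ89 replicates 1, 2 and 3. The median shift of the 9 member peaks was -1.09, -0.95 and 0.19 in the same order. Member peaks were below 0 in 9, 8 and 3 of 9 cases. Scalings that set the libraries to a common level took the median of all tested peaks from -0.50 to between -0.01 and 0.04. Under every such scaling 4 member peaks were below 0 (*EZH1*, *EZH2*, *RING1* and *RNF2*) and 5 were above 0 (*EED*, *BMI1*, *CBX2*, *RYBP* and *EPC1*). The part of library composition in the differences was not tested.

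A value relative to the median tested peak of its own library removes that common level, and this measure was added after the values were seen. *EZH1* stood at 1.64, 1.45 and 1.35 times the library median in HttQ23 and at 0.710, 0.773 and 1.08 times in HttQ89. All 3 HttQ89 libraries were thus below all 3 HttQ23 libraries, with means of 1.48 ± 0.146 and 0.854 ± 0.198 (SD, n = 3 each; exact two-sided permutation p = 0.1, the smallest this design allows). *EZH1* was the 1 member peak of 9 without overlap in this direction, against 3.27% of all tested peaks, and 0 of 9 lay above without overlap, against 2.99%. In the order of peaks within each library *EZH1* stood at percentiles 68.2, 63.8 and 63.1 (HttQ23) against 39.5, 40.9 and 53.2 (HttQ89). For *EZH2* the relative values were 3.51, 3.52 and 3.28 in the HttQ23 libraries against 4.26, 2.34 and 3.37 in the HttQ89 libraries, which overlapped.

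The paralog pairs were therefore also set against each other within each library, likewise after the values were seen. The ratio of *EZH1* to *EZH2* was 0.466, 0.412 and 0.412 (HttQ23) against 0.167, 0.330 and 0.320 (HttQ89). The groups did not overlap, and their means were 0.430 ± 0.0312 (HttQ23) and 0.272 ± 0.0917 (HttQ89), with the SD over 3 libraries a group. This ratio uses the same *EZH1* values as the measure over the library median and is not separate support. The share of other peak pairs without overlap was not computed. An exact permutation test (two-sided) gave p = 0.1, or 0.2 after Benjamini-Hochberg adjustment over the 2 paralog ratios of this paragraph alone. Ratios of other member pairs did not enter that adjustment. The ratio of *RING1* to *RNF2* was 0.738, 0.756 and 1.01 in the HttQ23 libraries against 1.11, 0.664 and 0.905 in the HttQ89 libraries, with overlapping groups (exact permutation p = 0.7, adjusted 0.7, n = 3 each). With 3 libraries a group this exact test cannot pass 0.05.

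**Figure D4:**
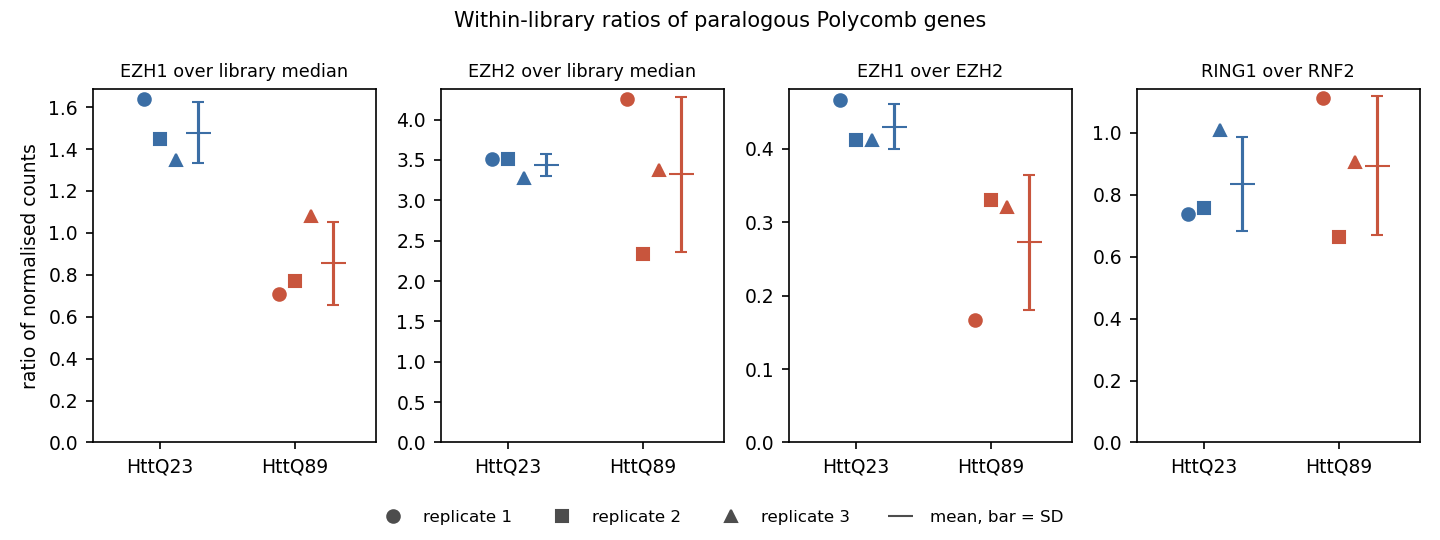
Ratios of normalized counts within each library for EZH1 and EZH2 over the library's median tested peak, EZH1 over EZH2 and RING1 over RNF2 (circle, square and triangle for replicates 1, 2 and 3; dash and bar, mean and SD). EZH1 over EZH2 is 0.412 to 0.466 in HttQ23 and 0.167 to 0.330 in HttQ89, whereas RING1 over RNF2 overlaps between the groups.

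The other members of these complexes were read from 6 lists of textbook membership, each gene at its strongest promoter peak (within 2 kb of the TSS). Of 85 listed genes 71 had a tested promoter peak, of which 59 had a log2 fold change below 0 and 12 above 0. Their median was -0.40, beside -0.50 over 10776 genes taken in the same way, of which 86.0% were below 0. None passed the limma adjusted p. At an unadjusted p under 0.05, 1 of the 71 was lower, against 4.02% of all tested peaks.

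Among the PRC2 accessory genes 9 of 11 were tested and 8 were below 0 (median -0.40). *JARID2*, whose product helps PRC2 reach its targets, had the strongest peak of these, with means of 293 ± 99.6 (HttQ23) and 274 ± 136 (HttQ89) normalized counts (SD, n = 3 each). The lowest p of this list was at *PHF1*, with a log2 fold change of -1.22 ± 0.79 (SE, limma unadjusted p = 0.125). In canonical PRC1 10 of 11 were tested and 8 were below 0 (median -0.50). *CBX6* had the strongest peak of that list, with 243 ± 39.7 (HttQ23) and 211 ± 83.2 (HttQ89) normalized counts (SD, n = 3 each). *PHC1*, which codes for a Polyhomeotic subunit that lets PRC1 complexes cluster, had 131.52, 118.95 and 88.43 (HttQ23) against 10.30, 62.26 and 81.45 (HttQ89). These did not overlap, and the log2 fold change was -1.53 ± 0.68 (SE; limma unadjusted p = 0.0247, adjusted p = 0.818). *PHC2* had 165.46, 133.81 and 111.20 in the HttQ23 libraries against 43.24, 104.76 and 100.46 in the HttQ89 libraries, again without overlap.

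Of the variant PRC1 genes 24 of 27 were tested and 21 were below 0 (median -0.55). The strongest of these peaks was at *BCOR*, a corepressor gene, with 277 ± 86.0 (HttQ23) and 191 ± 95.4 (HttQ89) (SD, n = 3 each). The lowest p was at *SKP1*, with a log2 fold change of -0.97 ± 0.56 (SE, limma unadjusted p = 0.0822). Of the PR-DUB genes 9 of 11 were tested and 7 were below 0 (median -0.34), and *HCFC1* had the strongest peak, with 2440 ± 1062 and 1978 ± 1066. *FOXK2*, which codes for a forkhead factor that carries PR-DUB to DNA, had the lowest p of that list (326.67, 259.13 and 246.03 in the HttQ23 libraries against 46.33, 158.12 and 296.86 in the HttQ89 libraries; limma unadjusted p = 0.0544). The list of YY1 and its Polycomb partners (PhoRC and related MBT proteins) had 6 of 9 genes tested, all 6 below 0 (median -0.56). The *YY1* promoter itself, the strongest peak of that list, had 1231.39, 659.51 and 615.52 (HttQ23) against 1209.73, 439.77 and 805.49 (HttQ89), a log2 fold change of -0.07 ± 0.54 (SE; limma adjusted p = 0.963), and held 5 cores. *L3MBTL4* had the lowest p there, with a log2 fold change of -0.80 ± 0.64 (SE, limma unadjusted p = 0.210).

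The partners of EPC1 in NuA4/TIP60 gave the median nearest to 0 of the 6 lists. Here 13 of 16 genes were tested, 9 below 0 and 4 above 0 (median -0.23). *EPC2*, the paralog of *EPC1*, was the strongest of them at rank 98 of all tested peaks, with 1065.93, 505.52 and 887.82 in the HttQ23 libraries against 697.01, 323.16 and 1033.56 in the HttQ89 libraries. As at *EPC1*, replicate 2 was the lowest library in each group and the groups overlapped. *KAT5*, which codes for the acetyltransferase itself, had 347 ± 188 (HttQ23) and 319 ± 132 (HttQ89) (SD, n = 3 each), and *MRGBP* had the lowest p (339.40, 189.04 and 217.14 against 86.48, 92.90 and 212.69; limma unadjusted p = 0.0770). The peaks of 7 of the 13 genes held a core.

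**Figure D5:**
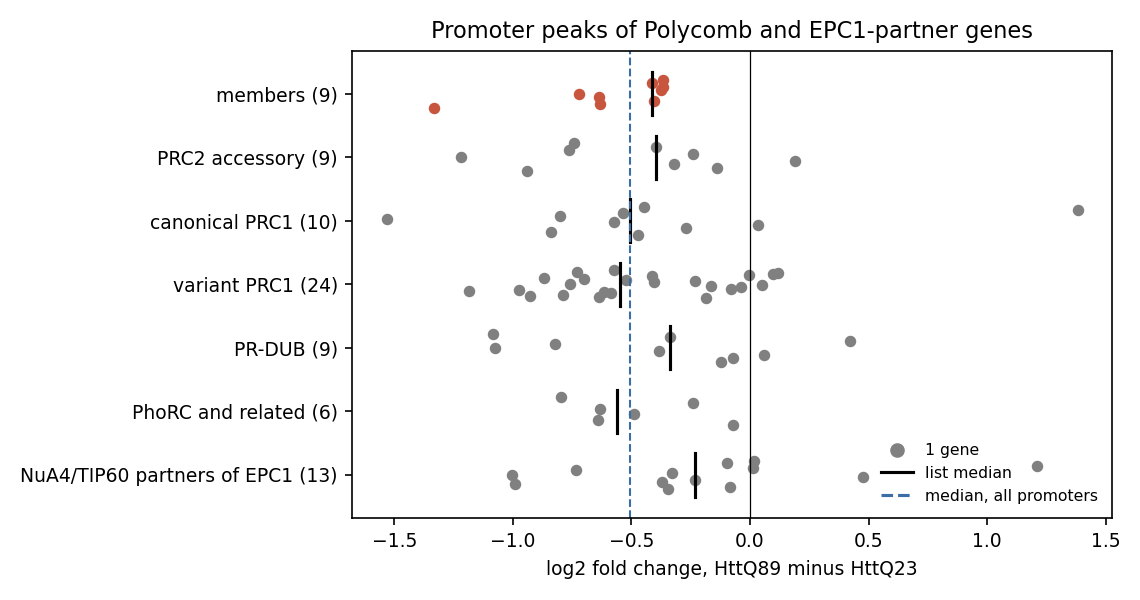
Log2 fold change (HttQ89 minus HttQ23) of the tested promoter peak of each gene (1 point a gene) in the 10-gene group (red, 9 tested) and in 6 wider lists (grey), with the list median (black bar) and the median over 10776 genes (dashed line). List medians run from -0.56 to -0.23, around the -0.50 of all genes.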

How the data were processed

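YY1 ChIP-seq was compared in 6 libraries (HttQ23 and HttQ89, 3 each). The labels call them biological replicates. Per the methods and labels, the authors trimmed reads (cutadapt 3.7), aligned them to GRCh38.p14 (Bowtie2 2.4.1), kept unique reads outside the ENCODE blacklist, called peaks against input (MACS3 3.0.1), annotated them (ChIPseeker 1.38.0) and scaled reads per peak to sequencing depth (DiffBind). The deposited signal is this normalized count, rounded to hundredths. The sources used here did not give the choice between separate and pooled peak calls. Values were whole multiples of 1 step per library (100% within 0.1 reads), giving 927910 to 2344649 reads. All 23002 annotated transcripts were found in GENCODE and their distances matched within 1 bp.

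limma 3.58.1 (R 4.3.3, variance trend, two-sided) tested log2(value + 1) over 14698 peaks above 0 in every library, in place of the single-peak test of the study, since groups held 3 libraries. Because the residual variance was estimated from the trend, the SE follows peak strength and not the spread of a single peak. edgeR 4.0.16 and DESeq2 1.42.0 on the recovered reads, other scalings, filters and pseudocounts, left-out libraries and a replicate block were alternatives. Exact permutation tests used SciPy 1.17.1. The limma step was tested on simulated data in which library size was divided out. The uneven levels of the HttQ89 libraries were thus not simulated. Reads without molecular identifiers are not independent molecules, so the limit for a value of 0 covers counting error only. Every member peak was reported; in the wider lists the strongest gene, the gene of lowest p and genes without overlap between groups were named, and *KAT5* was named after its values were seen. The values of 1 listed gene are not reported here. The members, lists and tests were chosen with earlier results of these data known.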

Additional observations from a re-analysis of the deposited data

How the results depend on the processing

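Over the 9 tested member peaks and 17 alternatives the log2 fold change kept its sign and its side of the threshold in 125 of the cases, changed sign in 27 and crossed the threshold in 1. Most sign changes came with a common library level. Under median centring, TMM scaling, quantile normalization, edgeR and DESeq2 in turn, *EED* was at 0.13, 0.084, 0.14, 0.11 and 0.11, *BMI1* at 0.16, 0.12, 0.060, 0.14 and 0.16, *CBX2* at 0.17, 0.12, 0.20, 0.14 and 0.15, *RYBP* at 0.12, 0.072, 0.15, 0.077 and 0.084, and *EPC1* at 0.17, 0.13, 0.022, 0.16 and 0.17, none past an adjusted p of 0.05 (the cause was not tested). The member median was then 0.12, 0.072, 0.022, 0.077 and 0.084. Leaving out 1 library gave *CBX2* -0.81 to 0.0016, the latter without HttQ89 replicate 1, and *EPC1* -0.70 to 0.020, the latter without HttQ89 replicate 2. *EZH1* stayed below 0 in all 17, from -0.79 (DESeq2) to -1.93 (without HttQ89 replicate 3).

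The number of member peaks past the limma adjusted p was 0 in the main fit and 0 to 1 over the fits that leave out a library, the 1 being *EZH1* without HttQ89 replicate 3. The number at an unadjusted p was 1 in the main fit and 0 when a mean of 20 or more was required, with no filter, with a pseudocount of 5, without the variance trend, with edgeR and with DESeq2; leaving out a library gave 0 to 4, the 4 without HttQ89 replicate 3. Over all tested peaks the split of lower and higher at an unadjusted p was 591 and 30, against 94 and 182 under median centring, 110 and 132 under TMM scaling, 133 and 136 under quantile normalization, 75 and 119 with edgeR, 85 and 183 with DESeq2, 444 and 1 with the mean filter, 345 and 22 with no filter, and 4516 and 14 without HttQ89 replicate 3.

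Same-numbered libraries did not deviate together throughout (correlations of 0.041, 0.39 and 0.15 for replicates 1, 2 and 3). HttQ89 replicates 2 and 3 went best with the HttQ23 library of the same number, whereas HttQ89 replicate 1 went best with HttQ23 replicate 3 (0.13). The numbers were not taken as pairs in the main fit, and a replicate block was an alternative. With the replicate block 0 member peaks and 1 of all peaks passed the adjusted p. At an unadjusted p the member peak under 0.05 was then *EPC1* (limma unadjusted p = 0.0033, adjusted p = 0.796) in place of *EZH1* (limma unadjusted p = 0.0671). Over all 14698 tested peaks 633 were lower and 52 higher at an unadjusted p under 0.05 in that fit. *EPC1* and *EZH1* were both lower in HttQ89 in each of the 3 same-numbered pairs. In replicate 3 the gap was small at both (2644.21 against 2631.88 at *EPC1*, 98.06 against 97.75 at *EZH1*). These 2 genes were looked at after their p-values were seen, and the share of all peaks lower in all 3 pairs was not computed. Relative to the HttQ23 mean, 83.1%, 84.7% and 24.6% of all tested peaks were lower in HttQ89 replicates 1, 2 and 3. Fewer reads fell in peaks in HttQ89 replicates 1 and 2 than in the other libraries, and *SUZ12* was at 0 there. With 3 libraries a group the exact permutation test of a single peak could not pass 0.05.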

Other observations

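The weak peak beyond *RING1* that was read in both libraries of replicate 3 alone has counterparts elsewhere. Peaks with at least 10 reads in 1 HttQ23 and 1 HttQ89 library and 0 in the other 4 numbered 61 for replicate 3 with replicate 3. They numbered 8 for replicate 2 with replicate 2 and 4 for replicate 1 with replicate 1, and between 0 and 4 for the 6 pairings of unlike numbers. This count was made after the *RING1* values were seen.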
